A study of Mus musculus with 56 samples.

Results

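The NRF2 targets and glutathione transferases of the mouse liver are described here as a list of 35 genes, given by name, of the 52230 genes to which the deposited transcripts could be assigned. The list holds the transcription factor NRF2 (gene Nfe2l2), its inhibitor Keap1, classic NRF2 targets, the enzymes that make and recycle glutathione, 18 glutathione transferases of the soluble, mitochondrial and microsomal families, and 7 enzymes that remove peroxide or superoxide. The genes were listed by name and role, not by a threshold on their values, but with earlier results of these data known. Liver RNA came from 56 male mice with either proline (P) or leucine (L) as residue 446 of GKRP, the product of Gckr. This regulatory protein binds and retains glucokinase in the hepatocyte nucleus. The genotypes were homozygous Gckr-446P (PP), heterozygous Gckr-446P/L (PL) and homozygous Gckr-446L (LL), and the substitution was knocked into the mouse gene, so it was not limited to the liver. All groups, controls included, had eaten food rich in fat and sugar (HFHSD) for 20 weeks, with 45% fat and with 10% glucose and 5% fructose. No mice on regular diet are part of the comparisons. The untreated groups were PP (n = 10), PL (n = 8) and LL (n = 10), and the groups on 3 mg/kg of a glucokinase activator (GKA) were PP (n = 10), PL (n = 8) and LL (n = 10). PP mouse 7 entered no comparison. PP without GKA therefore has n = 9, and the values of the removed mouse are given separately.

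NRF2 is held in the cytoplasm by KEAP1, which presents it for degradation. When electrophiles or oxidants modify cysteines of KEAP1, newly made NRF2 escapes, enters the nucleus, pairs with small MAF proteins and binds antioxidant response elements (ARE) near its target genes. The targets supply glutathione, reduce quinones and oxidised thiols and attach glutathione to electrophiles. In liver many glutathione transferases are also driven by the xenobiotic receptors CAR, PXR and AhR, and catalase, the superoxide dismutases and glutathione peroxidases are abundant in hepatocytes without any inducer.

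The letters of the ARE core, TGACNNNGC, were searched on both strands of the 1000 bases before the canonical start of each protein-coding gene (GRCm39 genome). They were found at least once before 14 of the 35 genes (40%), against 28.2% of 21770 protein-coding genes. A match is a description of the sequence and not a bound site. The core can overlap the AP-1 motif, whose first letters TGAC are the same. Shown are the 6 matches nearest to a start, and both matches before Gsta1, the gene of the list that varied most between mice. The core is in capitals, each sequence is written in the direction in which the core reads TGAC, and the distance is from the core to the start.
Gclm, chr3:122039062-122039090, minus strand, 46 bases before the start: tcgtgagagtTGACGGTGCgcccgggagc
Prdx1, chr4:116542653-116542681, minus strand, 70 bases before the start: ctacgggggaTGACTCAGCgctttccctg
Prdx6, chr1:161079143-161079171, minus strand, 55 bases before the start: ccacttcctcTGACTTAGCccacgtcaca
Sod1, chr16:90017303-90017331, minus strand, 87 bases before the start: ggattgtcacTGACTTTGCacagcgcgcc
Txnrd1, chr10:82694938-82694966, minus strand, 57 bases before the start: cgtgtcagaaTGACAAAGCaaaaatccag
Gsta3, chr1:21310678-21310706, plus strand, 110 bases before the start: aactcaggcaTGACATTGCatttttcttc
Gsta1, chr9:78137220-78137248, plus strand, 689 bases before the start: agcttggaaaTGACATTGCtaatggtgac
Gsta1, chr9:78137235-78137263, plus strand, 674 bases before the start: ttgctaatggTGACAAAGCaactttccca
The pair before Gsta1 lay within 1 stretch, as both 29-base windows overlap. No match was found in these windows for Nqo1, Hmox1, Srxn1, Gclc or any of the 6 mu-class genes, which says only that these letters are not there.

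Total reads per mouse were between 5189852 and 8093368. A mean fragment length was derived as the mean of length minus Salmon's effective length over transcripts longer than 5000 bases. It was between 171 and 681 bases per mouse, and it had a correlation with the 35 genes between -0.34 and 0.24. As a check of the tissue, the 6 hepatocyte markers (Alb, Apoa1, Ttr, Serpina1a, Cyp2e1 and Fabp1) together had between 78845 and 136486 normalised read counts (CPM) in each of the 55 mice, and Alb alone had at least 52053 CPM. Adipoq, which defines adipocytes, Ckm of muscle and Cpa1 and Prss2 of pancreas had 0 reads in all 55. In whole liver, fewer cells of a type and less RNA per cell cannot be told apart.

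All 35 genes passed the filter on low counts in every comparison. Together they took 1.44% ± 0.149 of the normalised reads (SD, n = 55) and 2.04% ± 0.581 of the transcript abundance in TPM, a unit that divides reads by transcript length and so allows levels to be compared between genes. The range between genes was wide. Microsomal Mgst1, which conjugates glutathione in the endoplasmic reticulum and outer mitochondrial membrane, had the highest level at 8472 ± 3893 TPM (SD, n = 55). It was followed by glutathione peroxidase Gpx1 at 2020 ± 709 TPM, pi-class Gstp1 at 1711 ± 718 TPM, alpha-class Gsta3 at 1542 ± 667 TPM, cytosolic superoxide dismutase Sod1 at 1172 ± 351 TPM and catalase (Cat) at 1051 ± 416 TPM. Mu-class Gstm1 had 981 ± 733 TPM and peroxiredoxin Prdx1 870 ± 297 TPM. From Gpx1 to Prdx1, neighbours in this order differed by less than the larger of their SDs, whereas Mgst1 exceeded Gpx1 by more than either SD. The lowest level was that of the quinone reductase Nqo1, 2.26 ± 1.46 TPM, although NQO1 is among the best known NRF2 targets in other tissues. Keap1 (6.02 ± 2.18 TPM), Mgst3 (7.21 ± 4.66 TPM), haem oxygenase Hmox1 (7.25 ± 3.62 TPM) and Gsta1 (8.84 ± 11.2 TPM) were next lowest. For several genes, high ones included, much of the TPM rests on short transcripts. Transcripts under 500 bases held 52.9% of the TPM of Gclm, 45.9% of that of Srxn1 and 40.7% of that of Gsr. For Gpx4 the share was 38.9%, for Gstm7 36.4% and for Gstp1 31.7%. A transcript of 559 bases held 64.1% of the TPM of Mgst1, and 1 of 779 bases held 44.6% of that of Cat. By mean CPM, which is not divided by length, Cat (2525 CPM) came next after Mgst1 (3607 CPM).

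**Figure D1:**
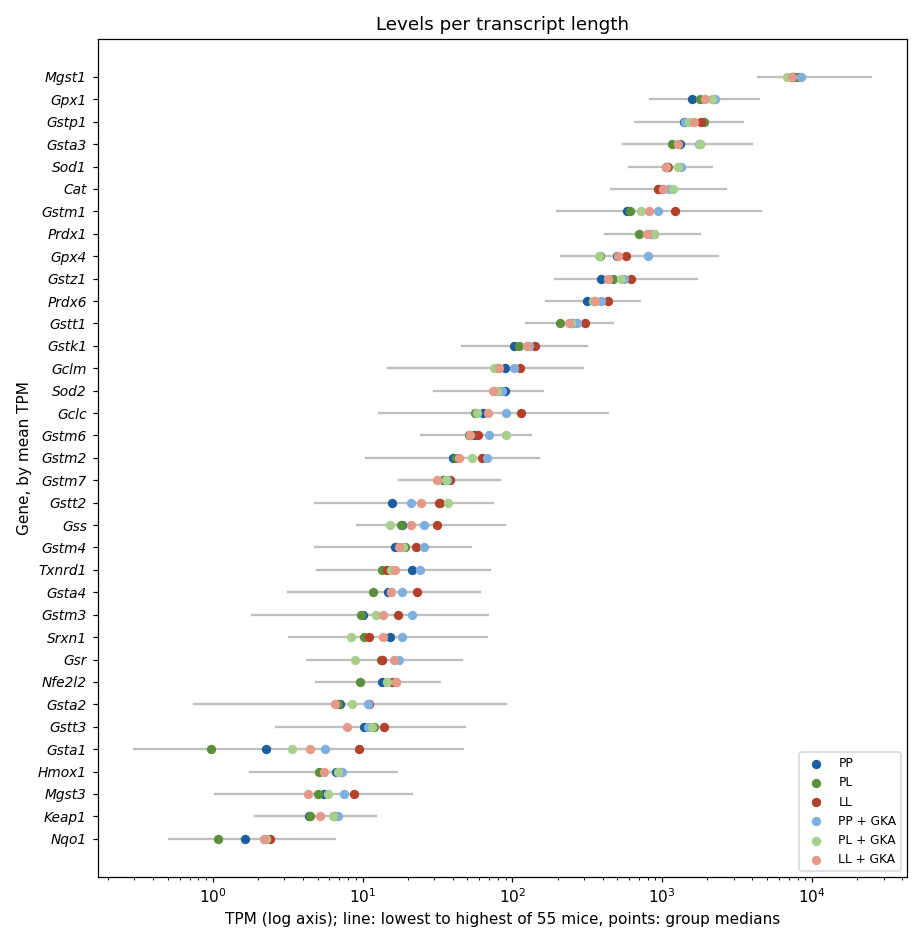
Level of each gene in TPM on a log axis, ordered by mean. Grey lines run from the lowest to the highest of the 55 mice (0 TPM, for Gsta1, is drawn at 0.3) and points are the medians of the 6 groups. The genes span from 2.26 TPM for Nqo1 to 8472 TPM for Mgst1 on average, and the group medians of a gene lie close together beside the range between mice.

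Spread between mice of a group differed widely along the list. The median SD of log2 CPM within groups was 0.33 over the 35 genes and 0.31 over 11516 genes, but single genes lay at both extremes. Gsta1, an alpha-class transferase that is low in uninduced liver, had an SD of 1.67, above 98.1% of genes. Its close relative Gsta2 had 0.95, Gstm3 0.91, Mgst3 0.69 and Nqo1 0.66, all with a greater SD than at least 90.1% of genes. Gsta1 ranged from 0 to 16.4 CPM over the 55 mice, with no read in 5 of them. Gstm3 ranged from 5.6 to 71.7 CPM, a 12.8-fold range. At the other end Cat (SD 0.14), Sod2 (0.16), Gstz1 (0.16), Keap1 (0.17) and Prdx1 (0.18) varied more than at most 9.36% of genes, and the highest mouse for Cat had 1.45 times the level of the lowest.

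To compare genotypes and treatment, each pair of groups was fitted with the quasi-likelihood test of edgeR, with p-values adjusted over all genes. A differentially expressed gene (DEG) needed both an adjusted p under 0.05 and a ratio of 1.3 or more, or of 0.7 or less. None of the 35 genes was a DEG in any of 9 pairwise comparisons, in 4 contrasts over both treatments or all genotypes, or by the tests of the interaction of GKA with genotype or of any difference between the 6 groups, for which no fold was required. Few genes were DEGs in all by edgeR, and the count depended on the tool. For LL against PP without GKA, DESeq2, the tool of the study, called 111 genes where edgeR called 9. DEGs made up 0.0854% of 10537 genes for LL against PP, 0.151% of 10580 for PL against PP and 0.00942% of 10616 for LL against PL without GKA. With GKA the DEGs were 0.239% of 10460 genes for LL against PP and 0% for PL against PP and LL against PL. They were also 0% for GKA in PP, in PL and in LL. Over both treatments the shares were 1.74% for LL against PP, 1.06% for PL against PP and 0.349% for LL against PL, of 11174 genes, and 0% for GKA over all genotypes. A difference between the 6 groups was called for 1.88% of 11477 genes, and an interaction for 0%. The values below are therefore those with an unadjusted p below 0.05, set beside the share of all genes with such a p, and none of them passed the correction. Values per group are the lowest, median and highest CPM.

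**Figure D2:**
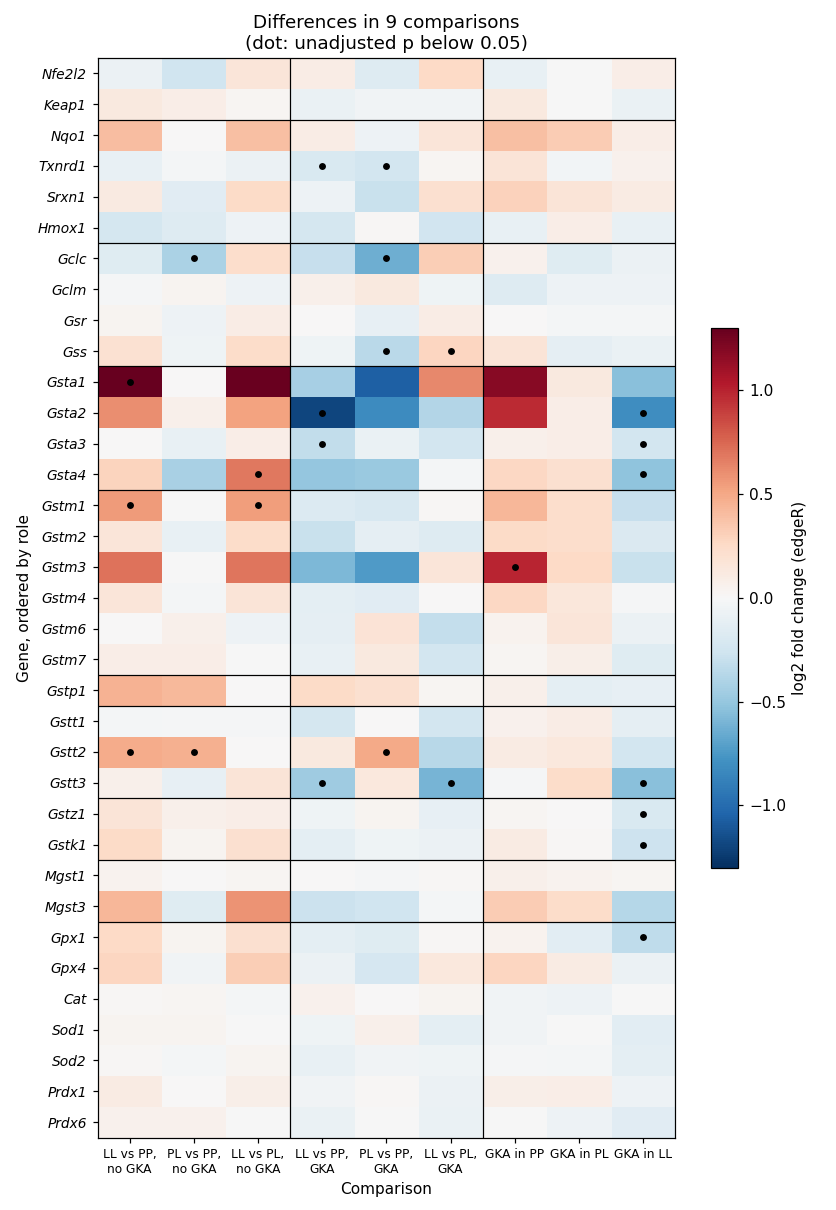
Log2 fold change of the 35 genes (rows, grouped by role) in 9 pairwise comparisons (columns), from edgeR, with a dot where the unadjusted p is below 0.05. Colours are deepest for Gsta1, Gsta2 and Gstm3. Dots fall on 7 genes for GKA in LL, on 4 each for LL and PL against PP with GKA, and on 0 for GKA in PL. The lowest adjusted p is 0.183, for Gstm1 in LL against PP without GKA.

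To assess the LL genotype without GKA, LL was compared with PP. Of the 35 genes, 28 had a higher and 7 a lower mean estimate in LL, with a median log2 fold change of 0.12 against 0.01 over all genes. An unadjusted p below 0.05 was found for 3 (8.57%), all higher in LL, against 11.8% of all genes and 6.15% that were higher. With an offset for transcript length the count was 9. The mu-class transferase Gstm1, a major enzyme of glutathione conjugation in rodent liver, had 600, 794 and 1060 CPM in PP (n = 9) and 666, 1209 and 1730 CPM in LL (n = 10). The groups overlapped, with 3 of the 10 LL mice inside the PP range and 7 above it. The log2 fold change was 0.55 (SE 0.17, edgeR p 0.00513, adjusted p 0.183). Theta-class Gstt2 had 10.8, 16 and 31.2 CPM in PP and 15.8, 24.6 and 42.1 CPM in LL, a log2 fold change of 0.48 (SE 0.20, adjusted p 0.338). Gsta1 had 0.344, 2.18 and 7.61 CPM in PP and 0.316, 5.64 and 16.1 CPM in LL, so that both groups began near 0 and only the upper part of LL exceeded PP. Its log2 fold change was 1.29 (SE 0.60, adjusted p 0.4), and with PP mouse 7 kept it was -0.15.

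For PL against PP without GKA, 2 of the 35 genes (5.71%) had an unadjusted p below 0.05, against 10.1% of all genes. Gstt2 reached a log2 fold change of 0.46 (SE 0.21, adjusted p 0.462), with PL at 14.6, 25.8 and 40 CPM, and -0.07 with the clock covariate described below. Gclc, the catalytic subunit of glutamate-cysteine ligase and the rate-limiting step of glutathione synthesis, had 196, 288 and 444 CPM in PP and 135, 247 and 303 CPM in PL (-0.41, SE 0.19, adjusted p 0.469), and with an offset for transcript length the estimate turned to 0.60. Nfe2l2 came next, with 44, 57.1 and 68.8 CPM in PP and 34.2, 47 and 65.9 CPM in PL (-0.26, SE 0.14, adjusted p 0.575). All 3 overlapped between the groups. For LL against PL without GKA the count was also 2 (5.71%, against 4.58% of all genes), namely Gsta4 and Gstm1, both higher in LL as were 2.02% of all genes. Gsta4, which conjugates the lipid peroxidation product 4-hydroxynonenal, had 4.32, 13 and 18 CPM in PL and 7.7, 19.1 and 30.4 CPM in LL (0.69, SE 0.26, adjusted p 0.844). Gstm1 had 398, 956 and 1114 CPM in PL (0.54, SE 0.23, adjusted p 0.951). Microsomal Mgst3 had 2.49, 7.06 and 9.77 CPM in PL and 3.03, 9.83 and 16.6 CPM in LL (0.58, SE 0.28, adjusted p 1). In all 3 the highest LL mice exceeded every PL mouse while the lowest LL mice lay among the PL mice.

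**Figure D3:**
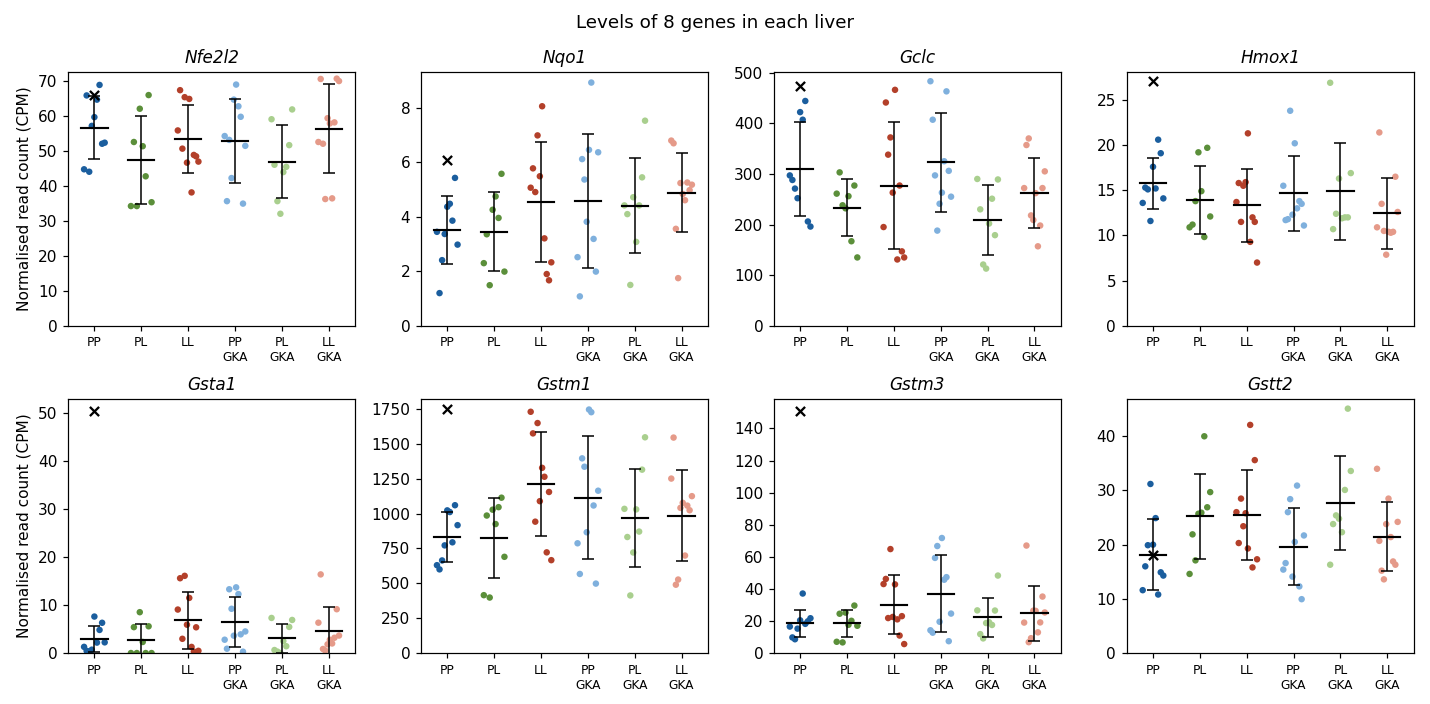
Normalised read counts (CPM, linear axes from 0) of 8 genes in each mouse of the 6 groups. Points are mice, black lines and bars are the mean ± SD of the groups (n = 8 to 10), and the cross is PP mouse 7, which is not in the mean. The ranges of the groups overlap for each of the 8 genes, and PP mouse 7 lies above the other 55 mice for Hmox1 (27.1 CPM), Gsta1 (50.4 CPM), Gstm1 (1753 CPM) and Gstm3 (151 CPM).

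To assess GKA, treated and untreated mice of each genotype were compared. In PP, 1 of the 35 genes (2.86%, against 3.56% of all genes) had an unadjusted p below 0.05. Mu-class Gstm3 had 8.6, 18.2 and 37.1 CPM in PP and 7.39, 35.1 and 71.7 CPM in PP with GKA (log2 fold change 0.99, SE 0.37, adjusted p 1). The PP values without GKA lay within the wider range with GKA. Gsta2 (0.97, SE 0.47) and Gsta1 (1.18, SE 0.57) had unadjusted p-values of 0.0502 and 0.0508, and with PP mouse 7 kept the estimate for Gsta1 was -0.27. In PL, 3 of the 35 genes had an unadjusted p below 0.05 with the transcript length offset. None (0%) had one by edgeR without that offset or by DESeq2, against 3.18% of all genes by edgeR. The lowest p was that of Gpx1, with 1007, 1268 and 1426 CPM in PL and 783, 1091 and 1552 CPM in PL with GKA (-0.14, SE 0.12, adjusted p 0.999), and its estimate was 0.06 with the transcript length offset and 0.27 by limma on TPM.

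In LL, 7 of the 35 genes (20%) had an unadjusted p below 0.05, all lower with GKA, against 6.15% of all genes and 3.2% that were lower. They were Gpx1, 3 alpha-class genes (Gsta2, Gsta3 and Gsta4), Gstt3, the zeta-class Gstz1, which isomerises maleylacetoacetate in tyrosine breakdown, and the kappa-class Gstk1 of mitochondria and peroxisomes. Gpx1, the main cytosolic glutathione peroxidase, had 1047, 1307 and 1977 CPM in LL and 911, 1152 and 1362 CPM in LL with GKA (log2 fold change -0.33, SE 0.12, adjusted p 0.767). Gsta3, the most abundant alpha-class transferase, had 1015, 1304 and 1491 CPM in LL and 822, 1055 and 1436 CPM with GKA (-0.24, SE 0.09, adjusted p 0.769). Gsta4 was at 6.6, 13.7 and 18.7 CPM with GKA (-0.52, SE 0.20, adjusted p 0.776) and Gsta2 at 0.874, 4.6 and 8.5 CPM against 2.1, 7.64 and 15.6 CPM (-0.81, SE 0.33, adjusted p 0.783). Values with GKA overlapped those without for each of these 4 genes. Over the whole list 30 genes had a lower and 5 a higher estimate with GKA in LL, with a median log2 fold change of -0.12 against 0.00 over all genes. Genes of the list varied together between mice, such as Gsta2 with Gsta4 (r 0.81 within groups), so the 7 are not independent results. The count of 7 was 3 with the clock component described below as a covariate and 1 by limma on TPM. The counts and medians share the LL mice without GKA with the comparison of LL against PP, in which most estimates had the other sign.

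Whether GKA differed in its effect between LL and PP was tested as an interaction over both genotypes. Of the 35 genes, 9 (25.7%) had an unadjusted p below 0.05, all in the direction of a lower effect in LL, against 6.07% of all genes and 3.15% in that direction, and the lowest adjusted p was 0.65. The count of 9 was 8 with the clock covariate, 7 with the transcript length offset, 6 by limma on TPM and 4 with PP mouse 7 kept. The largest of the 9 terms was that of Gsta2 (-1.79 on the log2 scale, SE 0.60, edgeR p 0.00404). The others were Gstm3 (-1.29, SE 0.54), Gsta4 (-0.80, SE 0.37), Gstm1 (-0.73, SE 0.32), Gpx1, Gstk1, Gsta3, Gstz1 and Keap1. Between mice within groups, Gsta2, Gstm3, Gsta4 and Gstm1 varied together, with r of 0.71 to 0.90 for their pairs. The 9 are therefore not independent results. By median CPM, Gstm1 was at 794 in PP and 1111 in PP with GKA, and at 1209 in LL and 1049 in LL with GKA. The ranges of all 4 groups included the values from 666 to 1060 CPM. For the interaction of GKA with PL against PP, 0 of the 35 genes (0%) had an unadjusted p below 0.05 by edgeR or DESeq2. The share of all genes by edgeR was 3.19%. With the transcript length offset the count was 1 of the 35 genes.

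For LL against PP with GKA, 4 of the 35 genes (11.4%) had an unadjusted p below 0.05, all lower in LL, against 10.4% of all genes and 5.11% that were lower. Gsta3 had 1041, 1366 and 1662 CPM in PP with GKA (log2 fold change -0.32, SE 0.10, p 0.00427, adjusted p 0.216). The range of LL with GKA, 822 to 1436 CPM, began lower and ended lower but overlapped. Thioredoxin reductase Txnrd1, a selenoenzyme and NRF2 target, had 60.4, 81.8 and 97.5 CPM in PP with GKA and 58.6, 68 and 79.2 CPM in LL with GKA (-0.20, SE 0.08, adjusted p 0.334). Gsta2 had 2.41, 6.03 and 41.2 CPM in PP with GKA, where mouse 14 stood apart (-1.19, SE 0.46, adjusted p 0.339). Gstt3 was the last of the 4 (-0.46, SE 0.19, adjusted p 0.406). By DESeq2 the adjusted p of Gsta3 was 0.0494, with a fold too small for a DEG. The count of 4 was 9 with the clock covariate, and 2 with the transcript length offset or by limma on TPM.

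For PL against PP with GKA, 4 of the 35 genes (11.4%) had an unadjusted p below 0.05, against 8.19% of all genes. Gclc had 188, 301 and 483 CPM in PP with GKA and 113, 216 and 290 CPM in PL with GKA (log2 fold change -0.63, SE 0.21, p 0.00686, adjusted p 0.358). Txnrd1 was at 56.1, 66.5 and 77.5 CPM in PL with GKA (-0.24, SE 0.09, adjusted p 0.441, and 0.16 with the transcript length offset). Glutathione synthetase Gss, the second step of glutathione synthesis, had 31.7, 48 and 67.5 CPM in PP with GKA and 26.7, 37.8 and 48.1 CPM in PL with GKA (-0.35, SE 0.15, adjusted p 0.554). Gstt2 was higher at 16.3, 25.1 and 45.1 CPM in PL against 9.94, 18.6 and 30.9 CPM in PP (0.49, SE 0.21, adjusted p 0.554). The count of 4 was 10 with the clock covariate. For LL against PL with GKA, 2 of the 35 genes (5.71%) had such a p, against 8.6% of all genes. They were Gstt3, at 12, 26 and 49.2 CPM in PL and 9.21, 18.3 and 29.6 CPM in LL (-0.60, SE 0.23, adjusted p 0.465), and Gss, at 35.3, 44.3 and 64.9 CPM in LL (0.28, SE 0.13, adjusted p 0.567, and -0.12 with the transcript length offset).

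The genotypes were then compared over both treatments in a single fit with terms for genotype and GKA. For PL against PP, 6 of the 35 genes (17.1%) had an unadjusted p below 0.05, with 5 lower and 1 higher in PL, against 14.3% of all genes. Gclc had the lowest adjusted p of the whole list in any comparison (log2 fold change -0.52, SE 0.16, p 0.00184, adjusted p 0.0706). With DESeq2 the adjusted p was 0.0371 and with PP mouse 7 kept it was 0.0437, and both would make it a DEG. With an offset for transcript length the estimate was 0.02 (SE 0.29, adjusted p 0.993), and with the clock component below as a covariate it was -0.12 (SE 0.17, adjusted p 0.802). Its longest transcript of 3423 bases held 95.7% of its reads but 61.5% of its TPM, the rest of which was in transcripts of 810 and 484 bases. Gstt2 was next (0.47, SE 0.15, p 0.00321, adjusted p 0.0949), followed by Gsta4 (-0.46, SE 0.20, adjusted p 0.274). Gss (-0.21, SE 0.10), Nfe2l2 itself (-0.21, SE 0.10) and Txnrd1 (-0.14, SE 0.07) completed the 6, with adjusted p-values of 0.327, 0.336 and 0.342.

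For LL against PP over both treatments, 3 of the 35 genes (8.57%) had an unadjusted p below 0.05, against 16.2% of all genes. Txnrd1 (log2 fold change -0.16, SE 0.07, adjusted p 0.191) and Gsta3 (-0.17, SE 0.07, adjusted p 0.246) were lower and Gstt2 (0.30, SE 0.15, adjusted p 0.288) was higher in LL. Gsta3 turned to 0.04 with the transcript length offset and Gstt2 to -0.05 with the clock covariate. For LL against PL it was 2 genes, both higher in LL (5.71%, against 8.95% of all genes and 4.83% that were higher). They were Gss (0.27, SE 0.10, adjusted p 0.323) and Nfe2l2 (0.22, SE 0.10, adjusted p 0.514). With the clock covariate that count was 8. For GKA over all genotypes it was Gpx1 alone (2.86%, against 5.22% of all genes), at -0.14 (SE 0.07, p 0.0497, adjusted p 0.946), which was 0.02 by limma on TPM. Nqo1 (0.26, SE 0.17) and mitochondrial superoxide dismutase Sod2 (-0.07, SE 0.04) came next in that contrast, with p-values of 0.132 and 0.141. By the test of any difference between the 6 groups, Gsta3 and Gpx1 had an unadjusted p below 0.05 (5.71%, against 12.7% of all genes), with adjusted p-values of 0.353 and 0.375.

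By role, the regulators varied little between groups. Nfe2l2 had group medians between 45.7 and 57.9 CPM and Keap1 between 27.6 and 30.8 CPM, and in the pairwise comparisons their log2 fold changes were between -0.26 and 0.26. Of the 4 classic targets, Nqo1 had 1.2, 3.45 and 5.43 CPM in PP and 1.67, 4.99 and 8.06 CPM in LL (0.40 by LL genotype without GKA), but its range with GKA was as wide, from 1.08 to 8.93 CPM in PP. Hmox1, which opens the haem ring, had group medians between 10.7 and 15.2 CPM, and sulfiredoxin Srxn1, which repairs overoxidised peroxiredoxins, had medians between 32.2 and 48.4 CPM. Among the 4 genes of glutathione synthesis and recycling, Gclm, the modifier subunit of the ligase whose catalytic subunit is Gclc, had 71.7, 84.6 and 118 CPM in PP and 73.5, 93.5 and 115 CPM in PL. For PL against PP over both treatments Gclm was at 0.08 (SE 0.11, adjusted p 0.802), beside -0.52 for Gclc, and whether the 2 subunits differ was not tested. Glutathione reductase Gsr had group medians between 29 and 31.8 CPM. Among the 7 peroxide and superoxide enzymes (Gpx1, Gpx4, Cat, Sod1, Sod2, Prdx1 and Prdx6), log2 fold changes in the pairwise comparisons were between -0.33 and 0.32. The 6 mu-class genes ranged more widely, from -0.74 to 0.99, and the alpha class most widely, from -1.19 to 1.29.

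Gstp1, the pi-class enzyme that is higher in male than in female mouse liver, had no unadjusted p below 0.05 by edgeR in any comparison. Its medians without GKA were 712 CPM (PP), 798 CPM (PL) and 746 CPM (LL), and the ranges were 434 to 968 CPM, 401 to 1893 CPM and 338 to 1841 CPM. Against PP its log2 fold change was 0.42 (SE 0.24) for PL and 0.45 (SE 0.28) for LL. The medians lay close together, and the highest PL and LL mice had about as much again as the highest PP mouse. Gstp1 shares most of its sequence with Gstp2, so reads may be split between them. Gstp2 was at 1047 CPM in LL mouse 46, where Gstp1 was at 1448 CPM, and at most 232 CPM in the other mice. With both summed, LL against PP was 0.53 (SE 0.29, adjusted p 0.505) without GKA and 0.41 (SE 0.17, p 0.0234, adjusted p 0.212) over both treatments. Gsta1 and Gsta2 likewise share reads, between 7 and 366 for the pair in a mouse. Summed, they gave 0.86 (SE 0.37, adjusted p 0.34) for LL against PP without GKA and -0.87 (SE 0.48, adjusted p 0.567) with GKA. Gsta1 took 31.5% ± 22.9 of the reads of the pair in PP (SD, n = 9) and 36.8% ± 19.4 in LL (n = 10), and the share did not differ beyond the spread between mice (difference 5.33 percentage points, two-sided exact permutation p 0.586). With GKA it was 36% ± 14.9 in PP and 43.5% ± 14.5 in LL (n = 10 each, difference 7.5 percentage points, two-sided permutation p 0.268).

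Part of the list moved together from mouse to mouse within groups. After the group means were removed from log2 CPM, 55 of the 595 pairs of the list (9.24%) had a Pearson's r above 0.7 over the 55 mice, against 0.227% of all pairs of genes, and the median r was 0.24 against -0.00. The mice share a diet, and the values of a mouse share a library, so r is given as a description. The 55 pairs joined 23 genes into 2 separate sets. The larger set had 13 genes, namely Nfe2l2, Nqo1, Srxn1, Gss, Gpx4, Mgst3, the alpha-class Gsta1, Gsta2 and Gsta4 and the mu-class Gstm1, Gstm2, Gstm3 and Gstm4, with a median r of 0.70 over its 78 pairs and a lowest r of 0.42. Of these, 12 were more variable than the median gene. The other set had 10 genes, namely Mgst1, Prdx1, Prdx6, Sod1, Sod2, Gstt1, Gstz1, Gstk1, Gstm6 and Gstm7, of which 1 was more variable than the median gene, with a median r of 0.64 and a lowest r of 0.03, between Gstm7 and Mgst1. Between the sets the median r was 0.15 (-0.50 to 0.50). The sets were formed after their values were seen.

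Gstm1 and Gstm3, which both lie in the mu-class cluster, had the highest r of the list, 0.90 (Spearman's rho 0.88). Within each of the 6 groups r was between 0.78 and 0.97. It was 0.89 without the 2 mice farthest from the median of Gstm1. Because both genes are of the same family, shared reads may add to this. Pairs that do not share sequence were nearly as close. Mgst3 with Gstm1 had r 0.85, Srxn1 with Gstm3 0.84, Gss with Srxn1 0.82, Nqo1 with Gstm1 0.81, and Mgst1 with Prdx1 0.85 (0.80 to 0.89 within groups). Nfe2l2 had r 0.79 with Srxn1 and 0.75 with Gsta1. Keap1, Gclm, Gsr, Hmox1, Gsta3, Cat, Gstp1, Gclc, Txnrd1, Gpx1, Gstt2 and Gstt3 were in no pair above 0.7. Txnrd1 had r -0.70 with Gstz1, and Gclc had r -0.62 with Gstp1 (-0.80 to -0.22 within groups). With the genes of the larger set Gclc had r between 0.06 (Gsta4) and 0.52 (Nfe2l2), and Txnrd1 between 0.02 (Gsta4) and 0.50 (Srxn1).

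**Figure D4:**
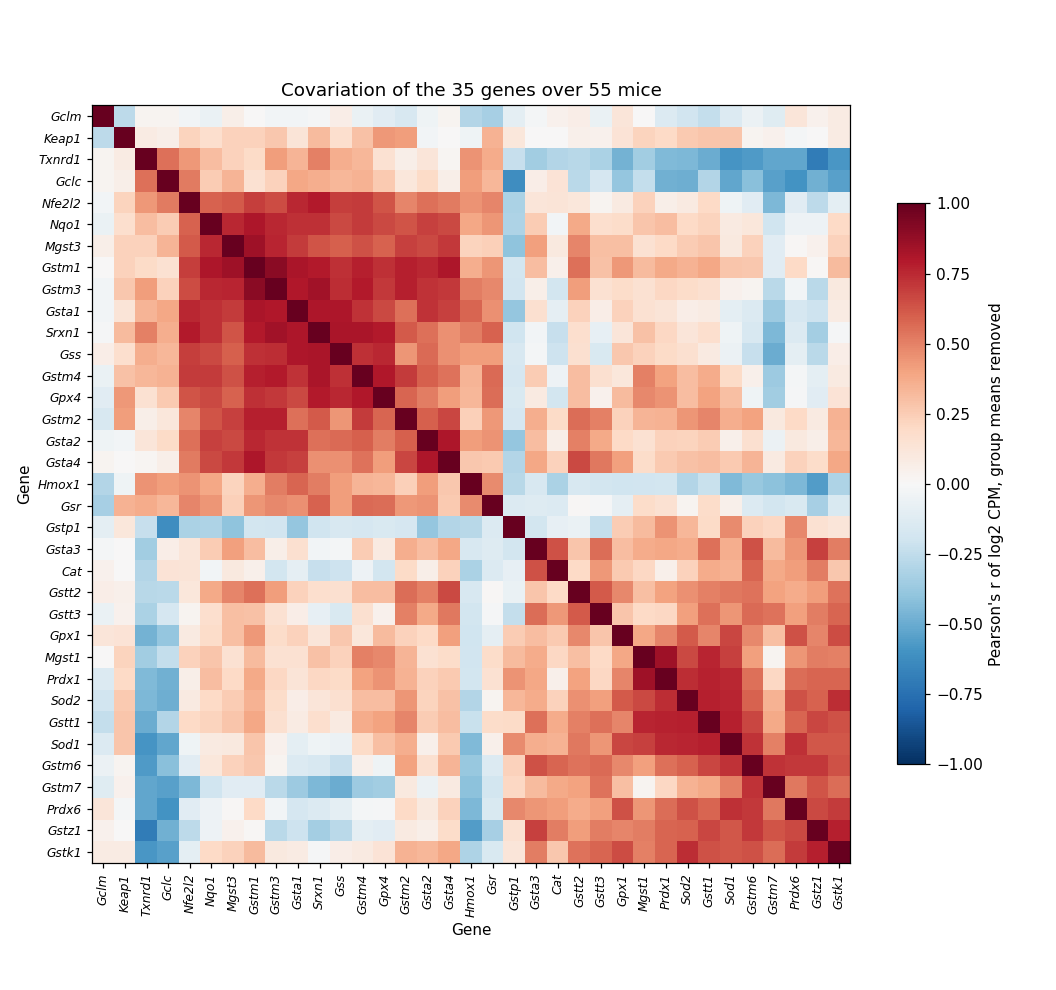
Pearson's r of log2 CPM between the 35 genes over 55 mice with group means removed, rows and columns ordered by average linkage. The 13 genes from Nfe2l2 to Gsta4 form a dark square, the genes from Mgst1 to Gstk1 a second and paler one with a median r of 0.64, and Txnrd1 and Gclc are blue (negative r) against most of the second.

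**Figure D5:**
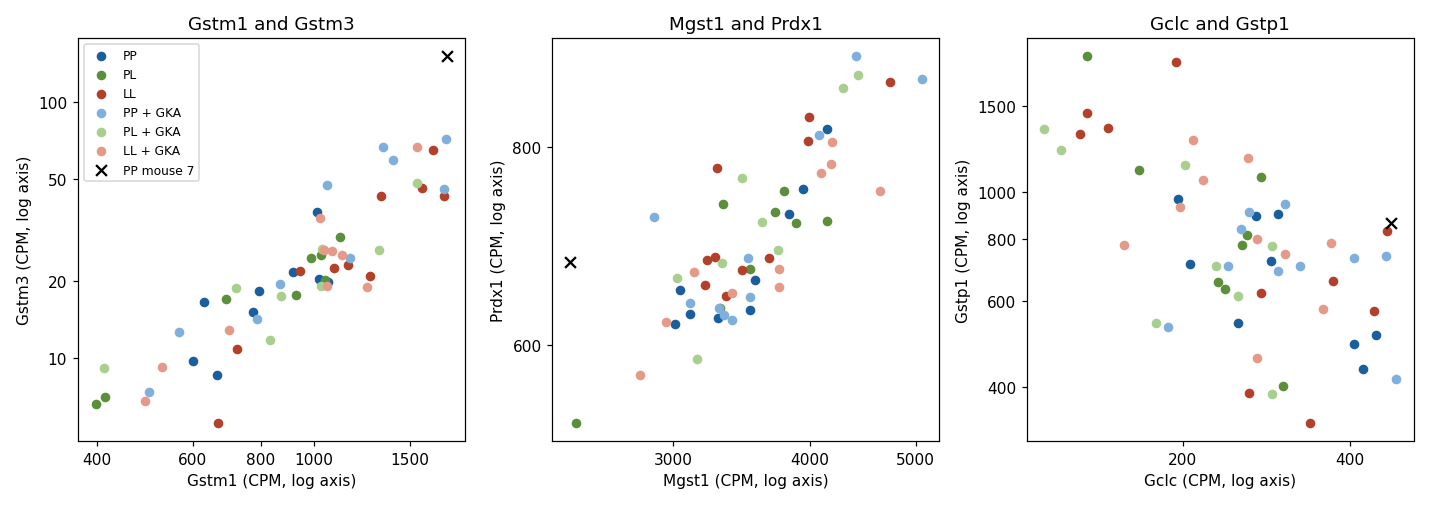
CPM of pairs of genes in each mouse, on log axes, coloured by group. Gstm3 follows Gstm1 (r 0.90) and Prdx1 follows Mgst1 (r 0.85) in mice of all groups, whereas Gstp1 is low where Gclc is high (r -0.62). PP mouse 7 (cross) has the highest Gstm3, 151 CPM.

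Outside the list, the genes most like Gsta1 by r over the 55 mice were Ugdh (0.89), Lgals1 (0.87), Osbpl3 (0.86), Anxa2 (0.86), Cidec (0.85) and Anxa5 (0.85), and the most opposite was Avpr1a (-0.84). Those most like Gstm1 were Idh2 (0.86), Fth1 (0.85), the ferritin heavy chain, and Anxa7 (0.83). Gstp1 was most like Ifitm3 (0.79), with the urinary protein gene Mup21 (0.76) and the sex-dependent Cyp7b1 (0.74) also among its 8 closest, and most opposite to the peroxisomal Ehhadh (-0.81) and Cyp4a14 (-0.80). Gclc was most like lysosomal lipase Lipa (0.85) and most opposite to Nnmt (-0.86). Markers of other cells moved with part of the list, and the share of all genes that reach the same r was not counted. The summed adipose markers (Adipoq, Plin1, Cidec and Cfd) had r above 0.5 with 14 of the 35 genes, 0.85 with Gsta1 and 0.77 with Gstm3. Of these 4 markers 2 passed the filter, Adipoq was at 0 in every mouse, Plin1 was at most 0.233 CPM and Cfd at most 4.31 CPM, while Cidec, a lipid droplet gene that fatty hepatocytes also express, ran from 0 to 63.5 CPM. The median of their sum was 3.85 CPM among PP mice, 2.45 CPM among PL mice and 19.7 CPM among LL mice, and with GKA it was 13.1, 2.08 and 11.8 CPM in the same order. Medians of Gsta1, for comparison, were 2.18, 1.16 and 5.64 CPM, and 4.2, 1.96 and 2.98 CPM with GKA. Single mice reached sums of 27.8 to 64 CPM in the 6 groups. The 7 Kupffer cell and macrophage markers, all above the filter, had summed medians of 182 to 258 CPM over the groups and an r of 0.58 with Hmox1 and -0.62 with Sod1. The 6 stellate cell markers had medians of 127 to 170 CPM and an r of 0.63 with Hmox1, and the 5 endothelial markers an r of -0.61 with Sod1. The 5 bile duct markers, of which 2 passed the filter, had an r of 0.68 with Gss and with Srxn1. The 4 pancreas markers had an r beyond 0.5 in size with 14 of the 35 genes, from -0.66 for Hmox1 to 0.70 for Gstz1, but Cpa1 and Prss2 were at 0 in all 55 mice, 1 of the 4 passed the filter and their sum was at most 51.2 CPM. The 7 pericentral markers had an r of -0.71 with Hmox1 and 0.69 with Gstz1. The part of these cells in the results was not tested.

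Clock genes moved with a few genes of the list, 3 of the 35 having an r beyond 0.5 in size with their shared component. The share of all genes beyond that r was not counted. The labels give no time of day. The first principal component of 16 clock genes (57.3% of their variance) was lowest in PP, at a median of -0.64, against 0.84 for PL and 0.34 for LL mice, and at -1.02, 0.54 and 0.09 with GKA, and 9 of the 16 clock genes were DEGs for PL against PP over both treatments, against 1.06% of all genes, and 5 for LL against PP, against 1.74%. Within groups its r was 0.63 with Gstt2, 0.55 with Gstm1, 0.51 with Gpx1 and -0.49 with Gclc. With this component as a covariate, Gstt2 for PL against PP over both treatments was 0.00 (SE 0.15, adjusted p 0.999), where it had been 0.47. At the same time 13 of the 35 genes then had an unadjusted p below 0.05, in place of 6, against 12.5% of all genes. All 13 were lower in PL, against 6.29% of all genes, and 10 of them were in the larger covarying set, beside Gstk1, Sod2 and Gpx1. The component itself was higher in PL than in PP. Within groups all 13 had a positive r with it, from 0.14 (Nfe2l2) to 0.55 (Gstm1). Such a covariate lowers their estimates for PL, so this fit cannot separate genotype from the clock component. Among the 13, Gsta4 was at -0.94 (SE 0.22, adjusted p 0.0475) and became a DEG, as did 0.137% of all genes with this covariate. Gsta2 was at -1.13 (SE 0.35, adjusted p 0.144), Gstm3 at -0.99 (SE 0.33, adjusted p 0.192) and Gstm1 at -0.59 (SE 0.19, adjusted p 0.162). The stress genes, of which 8 of 10 were DEGs for PL against PP over both treatments against 1.06% of all genes, had r between -0.38 and 0.23 with the 35 genes.

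To set the list beside its wider pathway, other genes were counted from lists. Of 25 other NRF2 targets above the filter, 1 was a DEG in any comparison, for LL against PP over both treatments, where 1.74% of all genes were. Pgd, the pentose phosphate enzyme that makes NADPH, had 37.6, 62.7 and 125 CPM in PP and 29.2, 40.8 and 64.3 CPM in LL, and 32.1, 67.3 and 160 CPM and 29.8, 49.5 and 66.8 CPM with GKA. It fell by LL genotype over both treatments (log2 fold change -0.58, SE 0.17, adjusted p 0.0315). The 2 genotypes overlapped, and the highest mice were PP. For LL against PP without GKA, 4 of these 25 targets had an unadjusted p below 0.05 and were higher and 1 was lower, against 11.8% of all genes with such a p and 6.15% that were higher. With GKA none was higher and 5 were lower, against 10.4% of all genes and 5.11% that were lower. Of 13 partners and regulators of NRF2, such as the MAF proteins and Bach1, none was a DEG. At most 3 of 13 had an unadjusted p below 0.05, by the test of any difference between the 6 groups, against 12.7% of all genes. None of up to 6 further transferases or of up to 25 further glutathione, thioredoxin and peroxide genes was a DEG. At most 2 of the 6 transferases had an unadjusted p below 0.05, in tests where 6.07% to 16.2% of all genes did. Of the 25 others at most 5 did, for LL and for PL against PP over both treatments, against 16.2% and 14.3% of all genes.

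Of 8 targets and partners of CAR, PXR and AhR, 2 were DEGs for LL against PP over both treatments, against 1.74% of all genes, and 2 for PL against PP, against 1.06%, with Cyp2c29 among both. The constitutively high cytochrome Cyp2c29 fell in LL (log2 fold change -0.60, SE 0.15, adjusted p 0.0123) and in PL (-0.66, SE 0.16, adjusted p 0.0141) against PP. Without GKA, PP mice had 621, 945 and 1537 CPM of Cyp2c29. PL mice had 522, 614 and 994 CPM, and LL mice 388, 727 and 1254 CPM. Cyp3a11, the main PXR target, fell in PL against PP (-1.05, SE 0.29, adjusted p 0.0412), with 509 ± 241 CPM (SD, n = 9) in PP and 291 ± 184 CPM (n = 8) in PL without GKA. Por, which passes electrons to the cytochromes, rose in LL against PP (0.68, SE 0.20, adjusted p 0.0431), from 25.7, 60.5 and 87.1 CPM to 62.4, 105 and 179 CPM without GKA. For none of these 3 did the groups separate.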

How the data were processed

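Liver RNA of 56 mice was sequenced. Per the study, RNA had an integrity number above 6. The authors checked reads with FastQC and quantified transcripts with Salmon 1.4.0 against GRCm39. The deposited files hold estimated counts per transcript, not normalised, and TPM per transcript, which the authors' Salmon run scaled by transcript length. Here both were summed per gene with GENCODE vM39 (98.8% of 139225 transcripts, at least 99.8% of reads per mouse), and estimated counts were rounded to whole numbers. Samples were grouped by the labels. Nothing in the labels gives litter, batch or time of day. PP mouse 7 was left out, as in the study's methods.

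Genes were tested with edgeR 4.0.16 (TMM, filterByExpr, quasi-likelihood test, Benjamini-Hochberg adjustment over all genes tested) in R 4.3.3. Alternatives used DESeq2 1.42.0, limma 3.58.1 on log2(TPM + 1), other size factors, no filter, a transcript length offset, a clock covariate, PP mouse 7 kept, and all 6 groups in 1 fit. Each mouse was left out in turn only in the pairwise fits of LL with PP mice (untreated, then treated) and in the 4 contrasts over both treatments or all genotypes. The test was tried on simulated counts first. CPM were normalised with TMM factors, and correlations used log2 CPM with a prior count of 2. Permutation tests used SciPy 1.17.1, with 100000 resamples where not exact. Total reads of 5189852 to 8093368 per mouse limit the precision of low genes such as Gsta1. The members of the list and the other gene lists were chosen with earlier results of these data known. Values per group are given for 6 set genes (Nfe2l2, Keap1, Nqo1, Gclc, Gclm and Hmox1) and for the 3 genes with the lowest p in a comparison, and others were named after their values were seen.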

Additional observations from a re-analysis of the deposited data

Results flagged for a closer look

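In 14 of 210 combinations of gene and group, the highest mouse stood apart from its group by Dixon's criterion, where chance gives about 5%. The count lies near that share, and CPM were used without a log scale. In PP, mouse 6 was highest for Txnrd1 (104 CPM, next 78.1), Gstm3 (37.1 CPM, next 21.7) and Gstm4 (45.9 CPM, next 34.5), and mouse 4 for Gsta4 (30.2 CPM, next 19.7). In PP with GKA, mouse 14 had 41.2 CPM of Gsta2 (next 16.7). In PL, mouse 28 had 1893 CPM of Gstp1 (next 1108) and mouse 26 had 38.2 CPM of Gstt3 (next 26.1). In PL with GKA, mouse 29 had 26.9 CPM of Hmox1 (next 16.9), mouse 36 had 48.3 CPM of Gstm3 (next 26.6) and mouse 33 had 49.5 CPM of Gstm7 (next 35.9). In LL, mouse 43 had 97.8 CPM of Gstm6 (next 64.3) and 50.8 CPM of Gstm7 (next 33.9), and mouse 45 had 4740 CPM of Mgst1 (next 3991). In LL with GKA, mouse 48 had 67 CPM of Gstm3 (next 35.2).

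PP mouse 7, which no comparison uses, was above the other 55 mice for 9 of the 35 genes, against 3.93% of 11516 genes. It had 50.4 CPM of Gsta1, where the others reached 16.4 CPM, and 151 CPM of Gstm3, where the others reached 71.7 CPM. Srxn1 was at 107 CPM (others up to 74.2), Gsr at 45.2 CPM (39.5), Gsta4 at 38.3 CPM (36.9), Hmox1 at 27.1 CPM (26.9), Txnrd1 at 106 CPM (104), Gstm1 at 1753 CPM (1746) and Gstm4 at 52.3 CPM (52). It was below the others for 6 genes (Gstz1, Gstk1, Mgst1, Cat, Sod1 and Prdx6), against 4.49% of genes. Its pericentral markers summed to 2353 CPM, below the lowest of the others at 3879 CPM, and their part in these values was not tested.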

How the results depend on the processing

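No paired analysis was possible because each mouse number occurs once. No gene of the list was a DEG in any comparison under the alternatives run, except for PL against PP over both treatments. There DESeq2 and PP mouse 7 kept each called 1 gene, Gclc (log2 fold change -0.52 and -0.55), the clock covariate called 1, Gsta4 (-0.94), and leaving out 1 mouse, which was run for 6 comparisons, called 0 to 1, namely Gclc without PP_GKA mouse 14 (-0.55) and Gstt2 without PP_GKA mouse 17 (0.53). Of the alternative log2 fold changes of named genes, 1047 kept direction and side of the threshold, 5 passed it and 12 turned. As none of these genes was a DEG in the main fits, keeping its side was the likely outcome. Values with 1 mouse left out are counted too. A change in size alone does not count, such as Gclc for PL against PP over both treatments, from -0.52 to -0.12 with the clock covariate. With the transcript length offset, Gclc was 0.60 for PL against PP without GKA and 0.02 over both treatments, Gpx1 0.06 for GKA in PL, Txnrd1 0.16 for PL against PP with GKA, Gss -0.12 for LL against PL with GKA and Gsta3 0.04 for LL against PP over both treatments. With the clock covariate, Gstt2 was -0.07 for PL against PP without GKA and -0.05 for LL against PP over both treatments. With PP mouse 7 kept, Gsta1 was -0.15 for LL against PP without GKA and -0.27 for GKA in PP. By limma on TPM, Gpx1 was 0.27 for GKA in PL and 0.02 for GKA over all genotypes. The cause was not tested. Except for PL against PP over both treatments with the clock covariate, counts of unadjusted p under other settings are given without the share of all genes.

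Counts of DEGs over all genes moved more. Without GKA, LL against PP gave 9, from 0 (RLE size factors) to 111 (DESeq2), and 0 without PP mouse 1 to 85 without LL mouse 42. PL against PP gave 16 (0 to 71) and LL against PL 1 (0 to 22). With GKA, LL against PP gave 25, from 0 (length offset) to 92 (DESeq2), and 12 without PP_GKA mouse 11 to 47 without PP_GKA mouse 13, and the others 0, up to 31 and 36 by DESeq2. Over both treatments the counts were 194 (5 by limma to 217, 157 to 248 leaving out a mouse), 119 (3 to 137, 89 to 140) and 39 (1 to 51, 25 to 50) for LL against PP, PL against PP and LL against PL. GKA gave at most 6 in 1 genotype and 4 over all, an interaction at most 3, and any difference 216 (3 to 400).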
